A study of Mus musculus with 12 samples.

Results

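The genes described here are the ribosomal RNA precursor and a set of small structural RNAs that work as parts of RNA-protein enzymes. They were chosen by symbol, as Rn45s, Rpph1, Rmrp, Rn7sk, Rprl3 and Terc, and 5 of these 6 are listed among the 24421 genes of the 12 count tables. Rn7sk was not analysed here. Of the 5 listed genes, 4 had enough counts to be tested with 14564 genes in all, and Terc did not.

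The libraries hold polyribosomal RNA, the RNA that sediments with ribosomes through a sucrose cushion, from the hippocampus of C57/Bl6 mice aged 6 weeks, with 6 control and 6 fear case libraries. The protocol text is the same for both groups and describes 8 min in an unfamiliar place, 7 min in the home cage and collection at 15 min, so the labels do not say what the controls underwent. The mice carried no allele or drug that the labels name. No label says that each library came from its own mouse, so p-values measure the spread between these libraries, which may in part be technical.

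Rn45s is the long precursor that RNA polymerase I makes in the nucleolus and that is cut into the RNAs of both ribosomal subunits. Rpph1 is the catalytic RNA of RNase P, which trims the leading end of transfer RNAs, and Rmrp is the RNA of the related RNase MRP, which cuts the ribosomal precursor and shares most of its proteins with RNase P. Rprl3 is a copy of Rpph1, Terc is the template RNA of telomerase, and Rpph1 and Rmrp are made by RNA polymerase III and carry no poly(A) tail. Most of this work takes place in the nucleus or nucleolus, whereas a cushion pellet holds whatever sediments as fast as ribosomes.

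Of the sequences below, the first pair shows how near the copy Rprl3 is to Rpph1, since counts of one could come from the other. Rpph1 lies on the minus strand at chr14:50807449-50807767 (GRCm38, the assembly also called mm10; 319 bases), and its first 300 bases are shown, at chr14:50807468-50807767. Rprl3 lies on the minus strand at chr8:3803069-3803358 (290 bases). In Rpph1 the capitals mark 21 bases, from base 182 to base 202, that Rprl3 lacks and that repeat the bases next to them; in Rprl3 they mark the bases that differ from the aligned base of Rpph1, and after base 236 Rprl3 no longer aligns and is left in lower case.
Rpph1: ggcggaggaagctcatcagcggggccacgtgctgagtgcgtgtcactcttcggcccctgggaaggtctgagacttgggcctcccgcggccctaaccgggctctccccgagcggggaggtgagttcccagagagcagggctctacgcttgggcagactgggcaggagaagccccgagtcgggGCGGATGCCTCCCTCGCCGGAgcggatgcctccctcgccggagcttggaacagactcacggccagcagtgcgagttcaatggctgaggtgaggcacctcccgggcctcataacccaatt
Rprl3: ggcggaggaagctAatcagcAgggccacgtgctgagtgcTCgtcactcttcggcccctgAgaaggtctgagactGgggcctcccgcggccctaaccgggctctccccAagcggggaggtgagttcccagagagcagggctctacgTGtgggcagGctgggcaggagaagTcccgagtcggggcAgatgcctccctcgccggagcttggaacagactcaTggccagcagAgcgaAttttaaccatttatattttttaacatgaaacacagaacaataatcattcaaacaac

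Over the 236 bases that align, 221 were identical (93.6%) and 15 differed. The other 2 counted copies, Rprl1 and Rprl2, were 91.1% and 93.2% identical to Rpph1 and lacked the same 21 bases. No 40-base stretch of Rpph1, the length of a read, was identical to a stretch of Rprl3, but 98 of its 280 stretches came within 2 mismatches of one. With any of the 3 copies it was 120 of 280. A read with errors could therefore be given to the wrong gene, and counts of the copies are uncertain.

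Rmrp is shown because a protein-coding gene is annotated on the other strand across it. It lies on the minus strand at chr4:43492783-43493063 (281 bases), and the capitals mark the 124 bases, from 41 to 164, that are also in an exon of Ccdc107.
Rmrp: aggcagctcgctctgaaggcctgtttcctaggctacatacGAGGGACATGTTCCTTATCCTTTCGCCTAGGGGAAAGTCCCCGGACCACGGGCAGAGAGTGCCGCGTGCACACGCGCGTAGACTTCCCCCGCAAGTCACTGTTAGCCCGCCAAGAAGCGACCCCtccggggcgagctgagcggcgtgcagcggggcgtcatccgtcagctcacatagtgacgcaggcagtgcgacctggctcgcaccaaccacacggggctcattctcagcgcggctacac
No 40-base stretch of Rpph1 came within 2 mismatches of Rmrp or of Terc. The strand setting of the counting is not known here, so reads of Rmrp and of the Ccdc107 exon cannot be told apart; Ccdc107 was counted at 6.28 to 10.96 CPM, counts scaled to the size of each library, where 1 CPM was 21.6 counts at the median depth, against 320.0 to 640.3 CPM for Rmrp.
Rpph1 overlaps 233 bases of an exon of Ccnb1ip1 on the same strand, and Ccnb1ip1 had 1 count in the 12 libraries. Terc lies on the minus strand at chr3:96414437-96414859 and overlaps no counted gene. Rn45s has no entry in the annotation used here.

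The libraries held 18.6 to 44.2 M gene counts. Fear case 6 was the deepest at 44.2 M, and the other 11 ranged from 18.6 to 24.2 M. All 11 markers of hippocampal neurons were detected, with a summed level of 780 to 885 CPM over all libraries. All 13 markers of the choroid plexus, a secretory epithelium next to the hippocampus, were detected too, at 777 to 2233 CPM in the controls, 24.98 to 416 CPM in fear case 1 to 5 and 1538 CPM in fear case 6. Of 5 blood cell markers, 4 were at 0 in every library. The other, Alas2, stood at 1.06 to 5.63 CPM in the controls and 1.19 to 5.62 CPM in fear case. The 4 markers at 0 do not show that blood was absent. In bulk RNA, fewer cells of a type and less RNA per cell cannot be told apart.

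No difference between the groups passed the test for any of the 4 tested RNAs. By edgeR's quasi-likelihood test with Benjamini-Hochberg adjustment, 0 of the 4 passed an adjusted p of 0.05, against 15 of all 14564 genes (0.103%; 0.0481% called higher and 0.0549% lower in fear case), and 0 of the 4 had an unadjusted p under 0.05, against 7.14% of all genes. DESeq2 and limma-voom called 0 of the 4 as well. An exact two-sided permutation test of the shares over all relabellings of the libraries, for which the smallest possible p is 0.00216, called 0 of these RNAs and 0% of all genes after adjustment; at an unadjusted p under 0.05 it took 0 of the RNAs and 7.93% of all genes. That smallest p is open only to genes whose groups separate fully, which were 0.124% (fear case above) and 0.481% (fear case below) of all genes. These are too few for any gene to pass the adjustment, so the adjusted result of this test does not bear on a difference. The largest departures were those of single libraries. Control 5 had very little Rpph1, and fear case 6 had more Rn45s and less Rpph1 and Rmrp than most others.

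**Figure D1:**
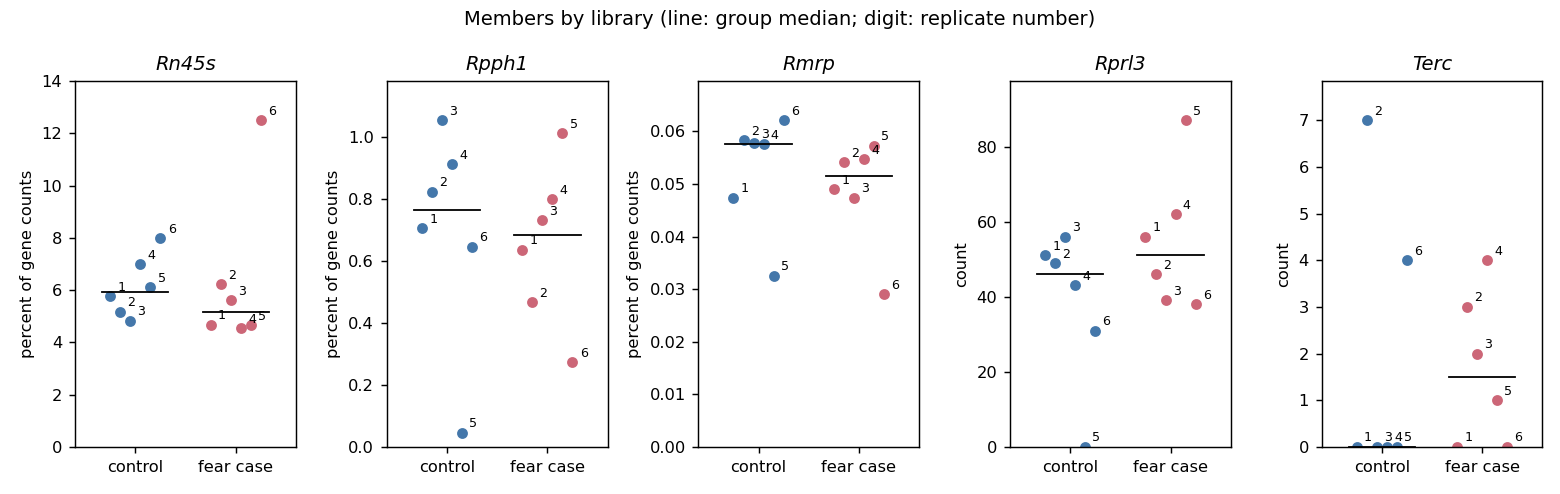
Each point is 1 library, for Rn45s, Rpph1 and Rmrp as the percent of gene counts and for Rprl3 and Terc as counts, with the replicate number beside it and a line at the median of each group of 6. Fear case 6 stands at 12.5% for Rn45s, control 5 at 0.0457% for Rpph1, and the groups overlap in every panel.

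Rn45s, the ribosomal RNA precursor, took the largest share of the members' counts, from 81.3% to 98.7% by library. The ribosomal RNAs cut from it share its sequence, so its counts may come from precursor or from cut RNA. The share of each was not tested. In the controls it held 4.83% of gene counts at the lowest, 5.94% at the median and 7.98% at the highest. In the fear case libraries it held 4.55% at the lowest, 5.15% at the median and 12.5% at the highest. The groups overlapped: fear case 1, 4 and 5 lay below every control, fear case 2 and 3 lay within the range of the controls, and fear case 6 lay above them all.

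The log2 fold change of Rn45s was 0.11 (SE 0.21, 95% interval -0.33 to 0.54) by edgeR, with an adjusted p of 0.941. The exact permutation test of the shares gave p = 0.946 (adjusted 0.994). Fear case 6 set the direction: without it the log2 fold change was -0.25 (SE 0.11, 95% interval -0.49 to -0.01, unadjusted p = 0.0390), which did not pass the adjustment by edgeR (adjusted p = 0.558). Without control 5 and fear case 6 it was -0.25 (adjusted p = 0.691 by edgeR). Fear case 6 was also the deepest library and had 2.61 alignment records set aside as not unique for each gene count, where the other 11 had 3.04 to 4.12. The part of depth and of these records in the result was not tested.

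Fear case 6 also had the high choroid plexus marker level given above, unlike the other 5 fear case libraries. With the mean log2 level of those markers as a covariate, the log2 fold change of Rn45s was 0.48 (SE 0.23, unadjusted p = 0.0473), with an adjusted p of 0.657 by edgeR. That fit moved Rmrp to -0.40 (SE 0.17, unadjusted p = 0.0266), with an adjusted p of 0.623 by edgeR. Neither passed.

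The genes whose log2 CPM followed that of Rn45s most closely over the 12 libraries were Mir6240 (Pearson r = 0.98) and Mir6236 (r = 0.93), both entries for miRNA precursors, and Chpt1 (r = 0.88), an enzyme of phosphatidylcholine synthesis. These were picked from 13504 genes and the libraries share depth and scaling, so the values are descriptions. Without fear case 6, Mir6240 was still first (r = 0.94), Mir6236 was the gene ranked 4 (r = 0.85), and Chpt1 fell to r = 0.60. The mature sequences, with the seed (bases 2 to 8) in capitals and from RefSeq on GRCm38.p6, have different seeds. The hairpin of Mir6240 is on chromosome 5 and that of Mir6236 on chromosome 9. Rn45s has no sequence in the annotation used here, so whether reads of ribosomal RNA were counted at these 2 entries was not tested.
mmu-miR-6240: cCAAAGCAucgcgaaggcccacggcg
mmu-miR-6236: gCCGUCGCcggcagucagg

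Mir6236 stood at 327 CPM at the lowest, 512 at the median and 693 at the highest in the controls, and at 364, 391 and 5087 CPM in the fear case libraries. The value of 5087 CPM is fear case 6, which was 13.2 times the median of the other 5 fear case libraries, and the other 11 libraries of both groups overlapped. Mir6240 ranged from 130 to 367 CPM in the 11 other libraries and stood at 1107 CPM in fear case 6. Per 1000 counts of Rn45s, Mir6236 reached 36.9 in fear case 6, where the others had 6.39 to 9.56, and Mir6240 reached 8.03, where the others had 2.76 to 4.71. Both entries were thus high in fear case 6 by more than Rn45s was, and kept a narrower ratio to it elsewhere.

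**Figure D2:**
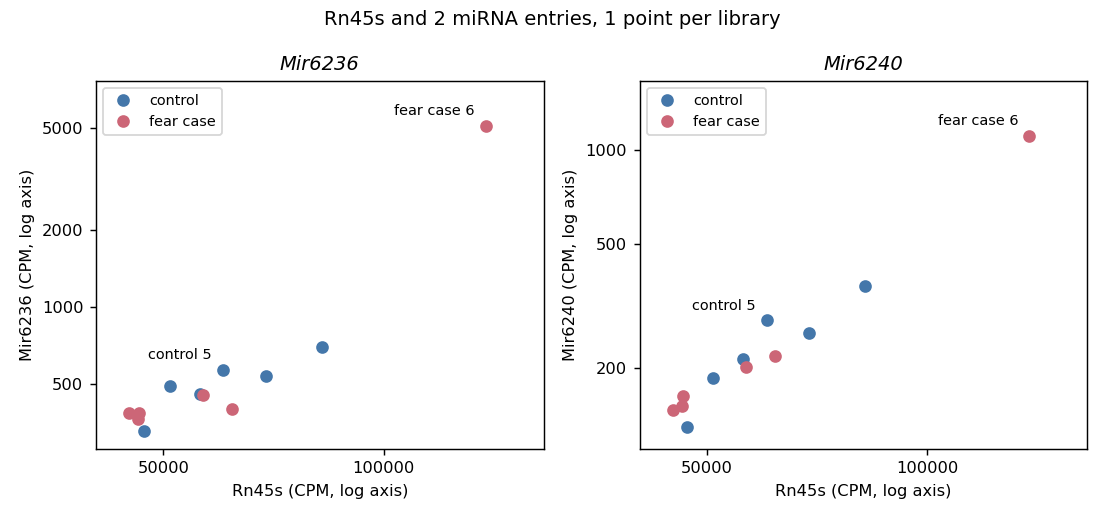
Each point is 1 library, with the level of Rn45s on the horizontal axis and that of Mir6236 (left) or Mir6240 (right) on the vertical axis, in CPM on log axes, and controls and fear case in different colours. Fear case 6 stands alone at the upper right of both panels, at 5087 CPM of Mir6236 and 1107 CPM of Mir6240.

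Rpph1, the RNA of RNase P, was the most abundant of the small RNAs. It held 0.0457% of gene counts at the lowest, 0.765% at the median and 1.05% at the highest in the controls. In the fear case libraries it held 0.274% at the lowest, 0.684% at the median and 1.01% at the highest. The groups overlapped, the lowest value was control 5 and the second lowest was fear case 6.

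The log2 fold change of Rpph1 was -0.07 (SE 0.39, 95% interval -0.89 to 0.74) by edgeR, with an adjusted p of 0.985, and the exact permutation test gave p = 0.807 (adjusted 0.984). The interval runs from a fold of 0.541 to 1.67, so a difference within that range remains compatible with these libraries. Without control 5 the log2 fold change was -0.32 (SE 0.20, 95% interval -0.73 to 0.09) by edgeR, with an adjusted p of 0.850. Without both control 5 and fear case 6 it was -0.18 (SE 0.15, 95% interval -0.48 to 0.13), with an adjusted p of 0.863.

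Control 5 had 10024 counts of Rpph1, where the other 11 libraries had 113056 to 222699. On the CPM scale it stood at 450.6, and the median of the other 5 controls was 18.04 times as high. Among the 9362 genes that averaged 10 CPM or more, no gene lay farther beyond all other libraries in control 5 than Rpph1, which was 2.74 on the log2 scale below the next lowest library. Next came Cep112, a protein of the centrosome, at 1.59 and Mir6516 at 1.43, and 8 genes lay beyond the others by more than 1. By the same measure Kdm5d, a gene of the Y chromosome, lay beyond all other libraries in control 6, by 7.12. The sex of the mice was not taken into account in any fit. The SD of Rpph1 among the 6 controls was 1.72 on the log2 scale, rank 2 of 9362, where the median gene had 0.145. Without control 5 it was 0.263, at rank 854. Among the 6 fear case libraries the SD of Rpph1 was 0.619, at rank 33. Without fear case 6 it was still 0.411, at rank 64, where the median gene had 0.128.

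The copies were low in the same library. Rprl2 had 5 counts in control 5 and 57 to 174 in the other libraries. Rprl1 had 0 counts there and 4 to 17 elsewhere. Beside Rpph1 itself, every copy was thus at its lowest in control 5.
Rprl3 had 0 counts in control 5, and 31, 43, 49, 51 and 56 in the other controls. In the fear case libraries it had 38, 39, 46, 56, 62 and 87. The groups overlapped. As shares of gene counts, fear case 4 and 5 lay above every control, and fear case 6 lay below every control but control 5.

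Per 1000 counts of Rpph1, Rprl3 had 0.226 to 0.407 counts in the 11 libraries other than control 5. Its 0 counts in control 5 allow up to 0.299 counts per 1000, by counting error only. That limit lies within the range of the other libraries and below their pooled ratio of 0.319. Rprl2 had 0.499 per 1000 in control 5 and 0.504 to 1.07 elsewhere.

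The log2 fold change of Rprl3 was 0.27 (SE 0.47, 95% interval -0.71 to 1.25) by edgeR, with an adjusted p of 0.934, and the exact permutation test gave p = 0.550 (adjusted 0.936). Single libraries moved it: the log2 fold change was 0.00 without control 5 (SE 0.31, adjusted p = 0.998 by edgeR) and 0.06 without fear case 5 (SE 0.50, adjusted p = 0.989 by edgeR). With all 12 libraries limma-voom gave 0.99 (SE 0.76, adjusted p = 0.801).

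The genes most like Rpph1 over the 12 libraries were Rprl2 (r = 0.98), Cdyl (r = 0.98), a chromatin protein, and Rprl3 (r = 0.98). Without control 5 these were 0.86, 0.88 and 0.83. Those most like Rprl3 were Rpph1 (r = 0.98), A230057D06Rik (r = 0.97) and Fth1 (r = 0.97), the ferritin heavy chain. Without control 5 they were 0.83, 0.67 and 0.70. Fth1 stood at 527 CPM in control 5, against 1199 to 1741 CPM in the other 11 libraries. The r of all 6 pairs was lower without that library.

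Parp2, a DNA repair enzyme, lies 74 bases from Rpph1 on the opposite strand and is the nearest counted gene that does not overlap it. It stood at 10.1, 14.6 and 15.9 CPM (lowest, median and highest) in the controls, and at 15.3, 17.2 and 17.5 CPM in the fear case libraries. Control 5 stood at 15.1 CPM, so Parp2 was not low where Rpph1 was. The log2 fold change was 0.26 (SE 0.11) and did not pass, with an adjusted p of 0.613 by edgeR.

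**Figure D3:**
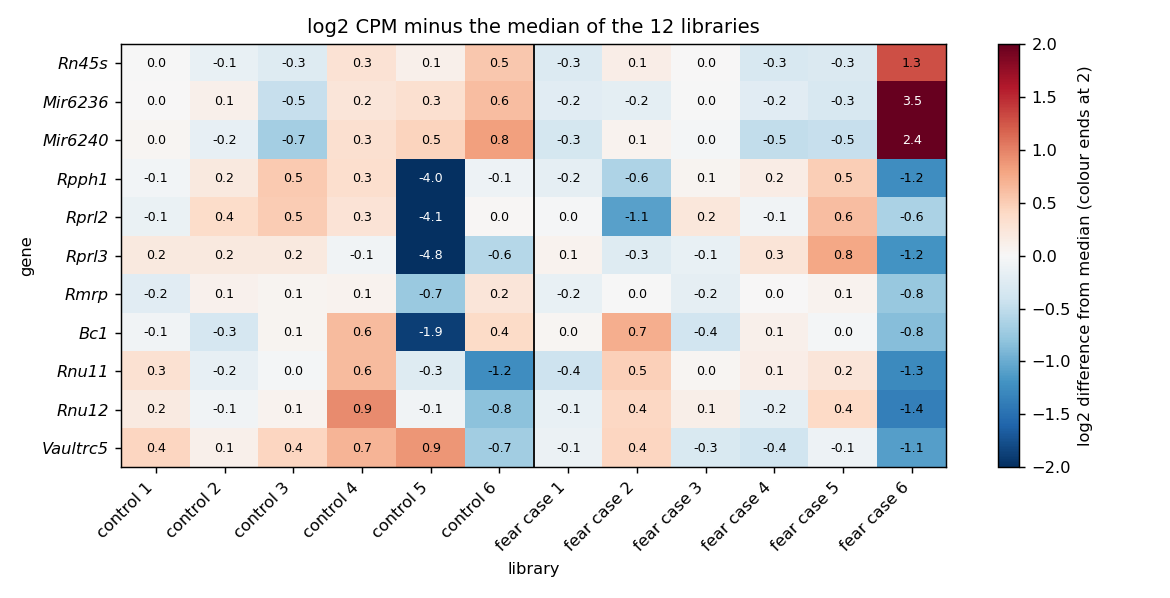
The colour and number of each cell give the log2 CPM of a gene (rows) in a library (columns) minus the median of that gene over the 12 libraries, with colours ending at 2 and a line between control and fear case. Rpph1, Rprl2, Rprl3 and Bc1 are lowest in control 5, Rmrp is low there and in fear case 6 (-0.75 in both), and in fear case 6 Rn45s, Mir6236 and Mir6240 are high while the other 8 rows are low.

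Rmrp, the RNA of RNase MRP, held 0.0326% of gene counts at the lowest, 0.0577% at the median and 0.0621% at the highest in the controls. In the fear case libraries it held 0.0290% at the lowest, 0.0515% at the median and 0.0573% at the highest. The groups overlapped, and the lowest library of each was again control 5 and fear case 6; the other 10 libraries lay between 0.0474% and 0.0621%.

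The log2 fold change of Rmrp was -0.09 (SE 0.14, 95% interval -0.38 to 0.19) by edgeR, with an adjusted p of 0.916, and the exact permutation test gave p = 0.489 (adjusted 0.928). Without fear case 6 it was 0.00 (SE 0.12) and without control 5 -0.20 (SE 0.11), with adjusted p of 0.999 and 0.840 by edgeR. Without both it was -0.11 (SE 0.08, 95% interval -0.27 to 0.06).

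Rpph1 had 1.402 counts for each count of Rmrp in control 5 and 8.64 to 18.3 in the other libraries. For each count of Rmrp, fear case 6 held 431 of Rn45s, against 81.3 to 188 elsewhere. Such ratios within a library do not depend on how libraries are scaled. Rmrp itself was low in both libraries, at 321 CPM in control 5 and 320.0 CPM in fear case 6, where the medians of the other 5 of their groups were 1.77 and 1.68 times as high. The ratio of Rn45s in fear case 6 therefore holds a low Rmrp as well as a high Rn45s.
The genes most like Rmrp over the 12 libraries were Klhl26 (r = 0.95), Pih1d1 (r = 0.93), which works in the assembly of RNA-protein particles, and Rps2 (r = 0.92), a protein of the small ribosomal subunit. Without both control 5 and fear case 6 these were 0.81, 0.85 and 0.51.

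Per kilobase of the annotated gene, the order of the levels was Rpph1, Rmrp, Rprl3 and Terc. Rpph1 had a median of 22331 CPM per kilobase over the 12 libraries, with a range of 1413 to 32169. Rmrp had a median of 1922 CPM per kilobase, with a range of 1139 to 2279. Rprl3 had a median of 7.84 CPM per kilobase, with a range of 0 to 13.5. Rpph1 stood above Rmrp in each of the 12 libraries, and in control 5 the margin was narrow, at 1413 against 1144. Rn45s has no length in the annotation used here and was not placed.

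Terc, the telomerase RNA, was close to the limit of what was counted. The controls had 0, 0, 0, 0, 4 and 7 counts, and the fear case libraries had 0, 0, 1, 2, 3 and 4. The groups overlapped. Summed over a group, this was 11 counts, or 0.0906 per M gene counts (95% exact Poisson interval 0.0452 to 0.162), in the controls and 10 counts, or 0.0644 per M (0.0309 to 0.118), in fear case. The intervals cover counting error only, and at 0 to 7 counts a library no difference was detectable at this depth. The exact permutation test of the shares gave p = 0.816 (adjusted 0.986).

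**Figure D4:**
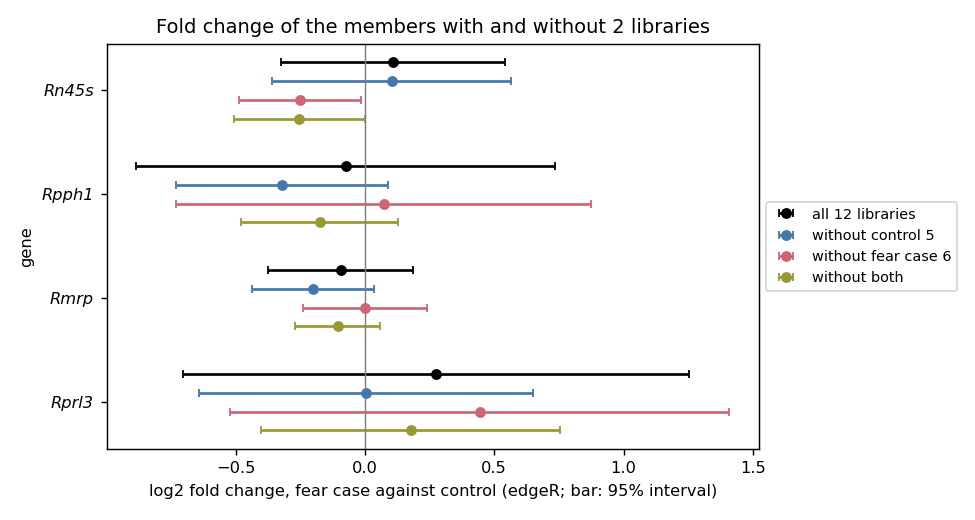
Points give the log2 fold change of fear case against control by edgeR and bars the 95% interval, for Rn45s, Rpph1, Rmrp and Rprl3 with all 12 libraries, without control 5, without fear case 6 and without both. Rn45s moves from 0.11 to -0.25 without fear case 6, and the bar of Rpph1 narrows without control 5, from -0.89 to 0.74 down to -0.73 to 0.09.

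Added up, the members held 6.89% ± 1.148 (SD, n = 6) of gene counts in the controls and 7.07% ± 2.86 (SD, n = 6) in fear case. Without fear case 6 the fear case value was 5.93% ± 0.617 (SD, n = 5). The sum follows Rn45s, and no test was made on it.

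Other structural RNAs were read beside the members. Of 32 on the list, 10 are listed in the count tables, 3 of them with 0 counts in all libraries, and 5 were tested. These were Bc1, a brain RNA found at synapses, Rnu11 and Rnu12 of the minor spliceosome, Vaultrc5 of the vault particle, and Rprl2. By edgeR 0 of the 5 passed, against 0.103% of all genes, and 1 had an unadjusted p under 0.05, against 7.14% of all genes. The median log2 fold change was -0.05, against -0.00 for all genes tested.

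Vaultrc5 was that gene. It stood at 12.6, 27.3 and 37.4 CPM (lowest, median and highest) in the controls and at 9.40, 17.6 and 27.5 CPM in fear case. The groups overlapped, and fear case 6 was the lowest of all. The log2 fold change was -0.59 (SE 0.21, unadjusted p = 0.0120), with an adjusted p of 0.524 by edgeR.

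Bc1 stood at 23.2 CPM in control 5, below the 47.7 to 142 CPM of the other 11 libraries, and its log2 fold change was 0.03 (SE 0.27). Rnu11 and Rnu12 were at their lowest in fear case 6, at 16.9 and 10.3 CPM, followed by control 6 at 17.1 and 15.2 CPM. Their log2 fold changes were -0.01 (SE 0.24) and -0.16 (SE 0.24). In fear case 6, then, each of these 5 RNAs lay below the median of the other fear case libraries, as Rpph1 and Rmrp did. In control 5, Bc1 and Rprl2 lay below every other library.

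The proteins of RNase P and RNase MRP were measured through 11 of 12 listed genes, all of which were tested. By edgeR 0 passed in either direction (0.103% of all genes did) and 1 had an unadjusted p under 0.05 (7.14% of all genes did). The median log2 fold change was -0.06, with 5 above 0 and 6 below, where all genes had 7080 above and 7484 below. Rpp21, a subunit of RNase P, stood at 14.6 ± 1.35 CPM in the controls and 12.1 ± 1.58 CPM in fear case (SD, n = 6 each), with a log2 fold change of -0.28 (SE 0.11) and an adjusted p of 0.597 by edgeR. Pop7, found in both enzymes, had a log2 fold change of -0.14 (SE 0.13). In control 5, where Rpph1 was lowest, the summed level of the list was 184 CPM, within the 157 to 198 CPM of the controls. In fear case 6, where Rpph1 and Rmrp were both low, it was 153 CPM, the lowest of the 12 libraries.

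RNA polymerase III, which makes Rpph1 and Rmrp, was read through 29 genes of its subunits and factors, all tested. By edgeR 0 passed (0.103% of all genes did), 3 had an unadjusted p under 0.05 (7.14% of all genes did), and the median log2 fold change was -0.02, with 11 above 0 and 18 below (7080 and 7484 of all genes). Gtf3a, the factor that starts transcription of the smallest ribosomal RNA, had the lowest p. It stood at 30.7, 35.3 and 40.3 CPM (lowest, median and highest) in the controls and at 22.9, 28.0 and 29.9 CPM in fear case.

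For Gtf3a the 2 groups did not overlap, with fear case lower, also as shares of gene counts (0.00227% to 0.00302% against 0.00316% to 0.00408%), an arrangement of shares found for 0.481% of all genes tested. Its log2 fold change was -0.37 (SE 0.09, unadjusted p = 0.000405), with an adjusted p of 0.148 by edgeR, so it did not pass. DESeq2 gave an adjusted p of 0.0231 for it, and the other alternatives gave 0.0672 (edgeR without fear case 6) to 0.563 (edgeR with the choroid plexus covariate, log2 fold change -0.35). Polr3f, a subunit of the polymerase, had a log2 fold change of 0.20 (SE 0.09) and an adjusted p of 0.618 by edgeR.

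RNA polymerase I, which makes Rn45s, was read through 13 genes, all tested. By edgeR 0 passed and 0 had an unadjusted p under 0.05, and the median log2 fold change was 0.02. Polr1a, its largest subunit, had a log2 fold change of -0.14 (SE 0.09), and Rrn3, the factor that recruits it, -0.07 (SE 0.07). The summed level of all 13 genes in fear case 6, where Rn45s was highest, was 474 CPM. That was within the range of 420 to 475 CPM of the fear case group and above the 440 to 471 CPM of the controls. The 7 subunits shared by polymerases I and III had a median of -0.08, with 0 passing by edgeR and 1 with an unadjusted p under 0.05. Their summed level was lowest in fear case 6, at 173 CPM, against 202 to 239 CPM in the controls. Of these, Polr2l had a log2 fold change of -0.20 (SE 0.09) and Polr2f of -0.16 (SE 0.10).

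The genes for cutting the ribosomal precursor and for early ribosome assembly numbered 46, all tested. By edgeR 0 passed (0.103% of all genes did) and 1 had an unadjusted p under 0.05 (7.14% of all genes did). The median log2 fold change was 0.04, with 31 above 0 and 15 below, against 7080 and 7484 of all genes. Heatr1, which acts in both synthesis and processing of the precursor, stood at 23.8 ± 1.56 CPM in the controls and 27.8 ± 2.46 CPM in fear case (SD, n = 6 each), with a log2 fold change of 0.22 (SE 0.09) and an adjusted p of 0.559 by edgeR. Nop2, an RNA methyltransferase of the nucleolus, had a log2 fold change of 0.23 (SE 0.11). The summed level of the list was highest in fear case 6, at 3157 CPM. The controls had 2624 to 3047 CPM, and the highest of the other fear case libraries had 3105 CPM.

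The protein partners of Rn7sk were read through 7 genes, all tested, and 0 passed by edgeR, 0 also at an unadjusted p under 0.05. Ccnt2 and Ccnt1, cyclins of the elongation factor that this RNA holds in check, had log2 fold changes of -0.11 (SE 0.07) and 0.12 (SE 0.09). The telomerase and H/ACA particle list had 9 genes, all tested, of which 0 passed by edgeR and 1 had an unadjusted p under 0.05. Nhp2 and Naf1, which bind and assemble H/ACA RNAs, had log2 fold changes of -0.21 (SE 0.09) and -0.21 (SE 0.11). The medians of these lists were 0.04 and -0.01.

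**Figure D5:**
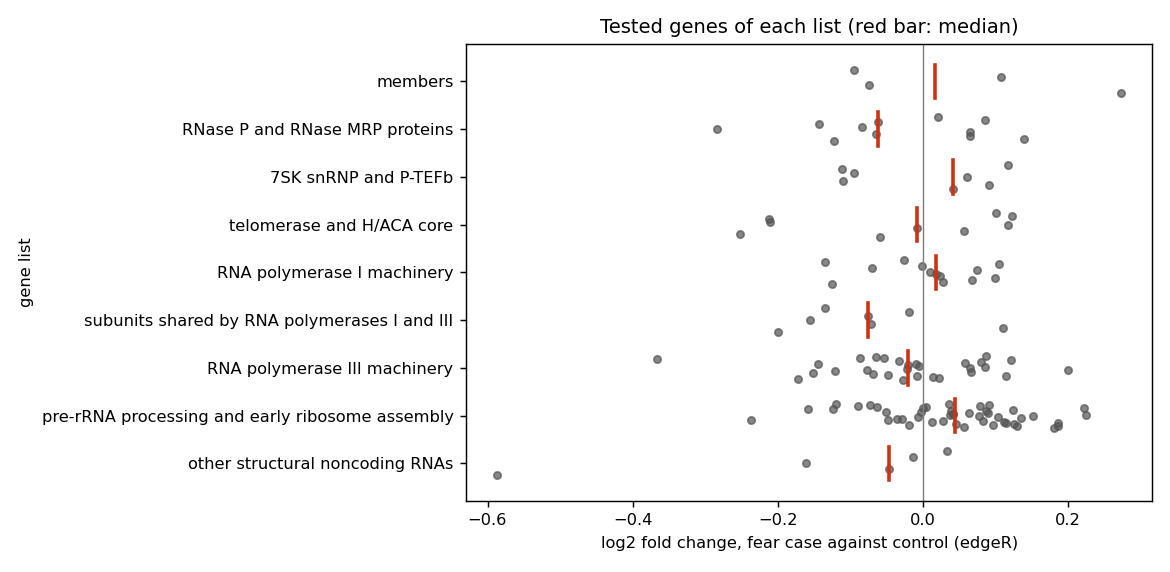
Each point is 1 tested gene, at its log2 fold change of fear case against control by edgeR, in rows for the members and the 8 lists, with a red bar at the median of each row. The medians lie between -0.08 and 0.04, and the lowest point is Vaultrc5 at -0.59.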

How the data were processed

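The values deposited by the authors are raw counts per gene symbol, as whole numbers, with a file for each library. Per the labels' protocols, RNA was purified from a sucrose cushion pellet and libraries were made with a SMARTer total RNA kit and read as 40 bp pairs. Per the submitters' processing notes, cutadapt, TopHat, Bowtie, HTSeq and mm10 were used; the versions, annotation and strand setting are not known here. Summary lines were left out of library sizes: no-feature counts were 25.5% to 33.3% of gene, no-feature and ambiguous counts, and 67.8 to 115 M alignment records per library were not unique. Genes with near-identical copies may thus be undercounted.

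Counts were fitted with edgeR 4.0.16 in R 4.3.3 (filterByExpr with minimum count 10, TMM, glmQLFTest) across 14564 genes, with Benjamini-Hochberg adjustment and calls at 0.05. CPM was taken on TMM sizes, with a prior count of 2 on the log2 scale; 1 CPM was 21.6 counts at the median depth. Shares were compared by exact permutation. DESeq2 1.42.0 and limma 3.58.1 were alternatives. The fit was tested on simulated data. That simulation gave all genes the same dispersion and held no outlying library, so it does not cover RNAs as uneven as Rpph1. Positions and sequences come from GENCODE vM21 and RefSeq. Percent identities come from a local alignment with Biopython 1.88, over aligned bases with gaps left out. BLAST+ was used to search the annotated transcripts. A match to promoters was not run. No 2 libraries of a group agreed within sampling noise (chi-square of at least 8.18 per gene).

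The members and lists were chosen with earlier results of these data known. The text names the members, the other structural RNAs with a mean of at least 1 CPM, the 2 genes of lowest p in each list, the 3 genes most like each member, and overlapping or nearest genes. Cep112, Mir6516, Kdm5d and Rprl1 were chosen after their values were seen.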

Additional observations from a re-analysis of the deposited data

Results flagged for a closer look

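Fear case 6 stood apart from the other 5 fear case libraries by Dixon's test at the 95% level in 4 measures, out of 18 sets of 6 libraries examined; chance marks about 1 in 20. Rn45s, the ribosomal RNA precursor, held 12.5% of gene counts there and 4.55% to 6.23% in the others. Rmrp, the RNA of RNase MRP, held 0.0290% there and 0.0474% to 0.0573% in the others. Rn45s had 431 counts for each count of Rmrp in that library and 81.3 to 118 in the others. The members summed to 12.8% of its gene counts, against 5.37% to 6.75%. These 4 measures share counts, so they are not independent of each other. Fear case 6 was also the deepest library, and the part of depth in these values was not tested.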

How the results depend on the processing

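No tested member was called under any of the 21 alternative fits; the smallest adjusted p by edgeR, DESeq2 or limma-voom was 0.558, for Rn45s without fear case 6. Directions near 0 changed. Rn45s had a log2 fold change of -0.25 without control 5 and fear case 6 (an alternative added after seeing the data), and -0.25 to 0.21 over leaving out each library. Rpph1 had 0.29 by limma-voom and -0.32 to 0.073 over the libraries left out, and Rmrp -0.20 to 0.0010. The difference of mean shares (fear case minus control) of Rn45s was -1.001 percentage points without both libraries, -0.030 on the log2 scale, and -0.996 to 0.598 percentage points over the libraries left out. For Rpph1 it was 0.26 on the log2 scale, and -0.175 to 0.0316 percentage points over the libraries left out. For Rprl3 the range was -8.36e-07 to 6.72e-05 percentage points, with 0.998 on the log2 scale and a log2 fold change of 0.99 by limma-voom, and for Terc -3.96e-06 to 3.77e-06, with 0.17 on the log2 scale. The cause was not tested beyond the libraries named.

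Genes called numbered 15 with all libraries, 33 without TMM, 37 without the filter, 63 with DESeq2, 5 with the choroid plexus covariate, 91 without control 5 and fear case 6, and 9 to 128 over the libraries left out, with 128 (12 higher, 116 lower) without fear case 6 and 9 without control 3 or fear case 2. Without TMM 7 were higher and 26 lower, against 7 and 8. Among the lists, 1 gene was called by DESeq2, Gtf3a, and 0 under the other alternatives. The list medians kept within the spread of the main values except that of the other structural RNAs with the choroid plexus covariate, at -0.66. Libraries of equal replicate number showed little likeness (correlations of deviations -0.17 to 0.05), which does not settle whether they were paired. The fit with the replicate number as a block called 18 genes. It gave Rn45s a log2 fold change of 0.00 (SE 0.14), against 0.11 (SE 0.21) without the block. The promoter comparison was not run. Depth limits Terc (0 to 7 counts) and Rprl3 (0 to 87 counts).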
